A study of Mus musculus with 16 samples.

Results

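The 34 genes described here encode enzymes and regulators of cholesterol and fatty acid synthesis. Probes were taken by gene name, with no threshold on their measured values, but the list was chosen with earlier results of these data known. All 34 were among the 17908 genes that the detection filter kept for testing, so none had to be left out. They fall into a sterol arm of 19 genes, 5 regulators and a fatty acid arm of 10 genes. Expression was measured on 16 single-colour Agilent arrays of total RNA from mouse bone-marrow-derived macrophages. The macrophages came from male C57BL/6Jax mice and were either miR-155 knockout (KO) or wild type (WT). Total bone marrow was grown for 9 days with M-CSF at 10 ng/mL, which drives marrow progenitors to become macrophages, and every group shared this treatment. Cells were then lysed unstimulated (0 h) or after 6, 12 or 24 h with 100 ng/mL LPS, a bacterial cell wall component sensed by TLR4. That gave KO and WT groups at 4 times, with 2 replicates each. The knockout allele is not described further in the labels.

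miR-155 is a microRNA that rises in macrophages exposed to LPS, and the comparison of genotypes asks how its absence alters that response. Its main mature strand is shown because its loss is the only labelled difference between the genotypes. Capitals mark the seed, bases 2 to 8, which pairs with target messages.
mmu-miR-155-5p: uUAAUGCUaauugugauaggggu
It lies at chr16:84714143-84714165 on the plus strand of GRCm38.p6 (RefSeq). The array carried 0 probes named for miR-155 or its host gene, so the knockout could not be checked on these arrays.

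Cholesterol is built from acetyl-CoA through mevalonate, isoprenoid and squalene intermediates, and lanosterol is then trimmed to cholesterol. The transcription factor SREBP-2, encoded by Srebf2, switches on most genes of this route when the endoplasmic reticulum is low in cholesterol. It travels to the Golgi with its escort Scap, and the Insig proteins hold both back when sterols are plentiful. SREBP-1, from Srebf1, and the liver X receptors drive the fatty acid genes, whose products are elongated and desaturated for membranes and lipid mediators. In macrophages these routes are known to respond to activation through TLR4, and 25-hydroxycholesterol made by Ch25h is a known brake on SREBP processing.

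A level below is the log2 signal of a gene minus the 75th percentile of the log2 signals of its array, so a level of 0 means as bright as that percentile. Levels are compared between arrays and never between genes, because each gene has its own probe. Of the 34 genes, 33 were well above background on all 16 arrays. Scd1 was so on 14, and the exceptions were the first-session arrays of KO cells at 12 h and WT cells at 24 h. Probes above background made up 56.0 to 67.6% of each array, and no spot was saturated. Precision is limited by having 2 arrays a group. Of 10 macrophage markers, all 10 were above background on both arrays of KO cells and of WT cells at 0 h. Detection alone does not establish identity, since 5 of 6 neutrophil and 4 of 6 stromal markers were also detected there in each genotype. Since whole cultures were lysed, fewer cells of a type and less RNA per cell cannot be told apart.

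The replicate number coincided with the scan session. The 8 arrays numbered 1 were scanned in one session and the 8 numbered 2 in another, so each group holds 1 array of each session. The sessions stood far apart. With session as a term in the fit, 54.7% of all genes differed between sessions after adjustment, and 22 of the 34 genes did so. At 0 h, all 34 genes were higher in session 2 than in session 1 in both genotypes, whereas 34.5% of all genes were. The median excess of session 2 at 0 h was 1.19 in KO cells and 1.74 in WT cells over the 34 genes, and -0.19 in KO cells and -0.15 in WT cells over all genes. Values of single arrays are given with session 1 before session 2, and counts averaged over genotypes without and with the session term. The labels do not say whether replicates were separate cultures or animals, so p-values measure only the spread between these samples.

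Averaged over both genotypes, part of the list fell at each time of LPS. Without the session term 8 of the 34 genes fell at 6 h, against 21.1% of all genes tested. Another 8 fell at 12 h, against 17.5%, and 13 fell at 24 h, against 11.8%. With the session term 13, 16 and 25 fell, against backgrounds of 29.3%, 26.7% and 21.5%. At 6 h the share of the list that fell was thus near the background without the session term, and at 24 h it was above the background in both fits. Since the list was chosen with earlier results known, the excess is a description and no test of the list. That excess depended on the scaling and background correction: with each array scaled to its median, 2 genes fell at 24 h, against 6.54% of all genes. With normexp background correction 1 fell, against 1.38%. Quantile normalization gave 18, against 13.6%, and the mean over probes 15, against 12.1%. Slide as a term gave 29, against 20.6%, and no filter on dim probes 9, against 6.33%. The sterol arm median at 24 h, minus that of all genes, was -1.72 under normexp, against -1.48 without it. The 24 h calls of Hmgcs1, Tm7sf2, Stard4, Srebf2, Elovl6 and Fads2 held when any 1 of the 16 arrays was left out, and the other 7 were each lost at least once. Of the sterol arm 3, 4 and 8 of 19 fell at 6, 12 and 24 h, and with the session term 6, 8 and 15. Of the fatty acid arm 5, 4 and 2 of 10 fell at the same times, and with the session term 7 at each. Only Scap rose without the session term, at 6 h, against 19.5% of all genes at 6 h, 16.8% at 12 h and 11% at 24 h. The session term gave rises of Scap and Idi1 at 6 h, against 30% of all genes, and of Elovl1 at 12 h, against 26.5%. It gave none at 24 h, where 20.4% of all genes rose. "Rose" and "fell" refer to an adjusted p below 0.05 in limma with Benjamini-Hochberg adjustment over all genes tested, and an error after ± is the standard error (SE) of that fit, which pools the 16 arrays.

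**Figure D1:**
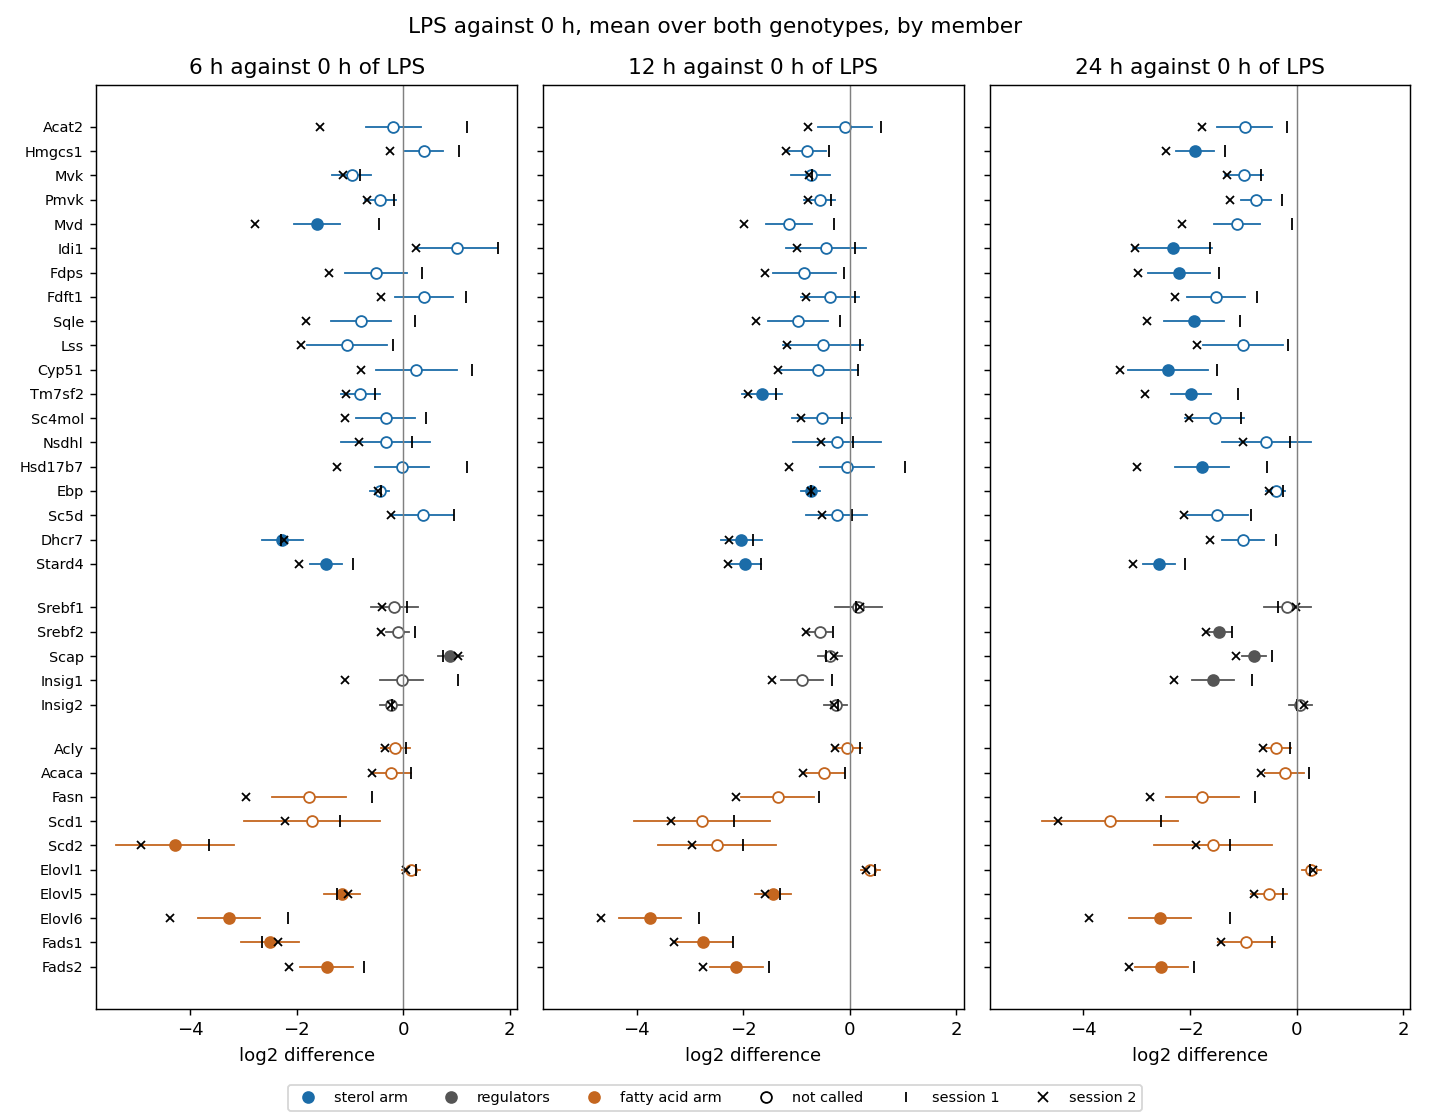
Log2 difference of each gene at 6, 12 and 24 h of LPS against 0 h, averaged over KO and WT cells, with genes in rows grouped by arm and bars for the SE. Filled points passed the test, vertical ticks show session 1 and crosses session 2. Of the 19 sterol arm points 15 lie further left at 24 h than at 6 h, and Scd2, Elovl6 and Fads1 lie far left at 6 h.

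The median difference over the sterol arm was -0.43 at 6 h, -0.60 at 12 h and -1.51 at 24 h. The fatty acid arm gave -1.57, -1.79 and -1.26 at those times, and the medians over all genes were 0.05, 0.02 and -0.03. These medians use 1 probe a gene. Of the 20 genes of the list with several detected probes, all probes agreed in sign for 13 at 6 h, 17 at 12 h and 19 at 24 h. With the mean over probes the sterol arm median at 6 h, minus that of all genes, was -0.405, against -0.47 with 1 probe. The sessions did not share the early part of the sterol response. In session 1 the sterol arm medians were 0.22, -0.14 and -0.74, whereas session 2 gave -1.09, -1.14 and -2.14. At 24 h all 19 sterol genes were below 0 h in both sessions, against 6823 of all 17908 genes. Across the 34 genes the sessions differed in sign for 15 at 6 h, 9 at 12 h and 1 at 24 h, and the share of all genes that did so was not counted.

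Array by array, the sterol arm median in KO cells was 1.74 and 3.16 at 0 h, 1.60 and 1.84 at 6 h, 1.32 and 1.45 at 12 h, and 0.77 and 0.58 at 24 h. In WT cells it was 1.12 and 3.29 at 0 h, 1.63 and 1.86 at 6 h, 0.98 and 1.67 at 12 h, and 0.06 and 0.62 at 24 h. The sessions lay far apart at 0 h and close together at later times, and the fall by 24 h was larger in session 2, where the 0 h levels were higher. The fatty acid arm median in KO cells was 1.05 and 2.07 at 0 h, -1.53 and 0.34 at 6 h, -0.19 and 0.21 at 12 h, and 0.80 and 1.25 at 24 h. WT cells gave 1.13 and 2.27 at 0 h, -1.20 and 0.56 at 6 h, -0.44 and 0.24 at 12 h, and 0.79 and 1.14 at 24 h. The median level of this arm was lowest at 6 h or 12 h in all 4 series. It was higher again at 24 h, though below its own 0 h value in each. The genes did not all share this course. Taken gene by gene, the 24 h against 6 h difference had a median of 0.07, and 4 of the 10 genes were lower at 24 h.

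**Figure D2:**
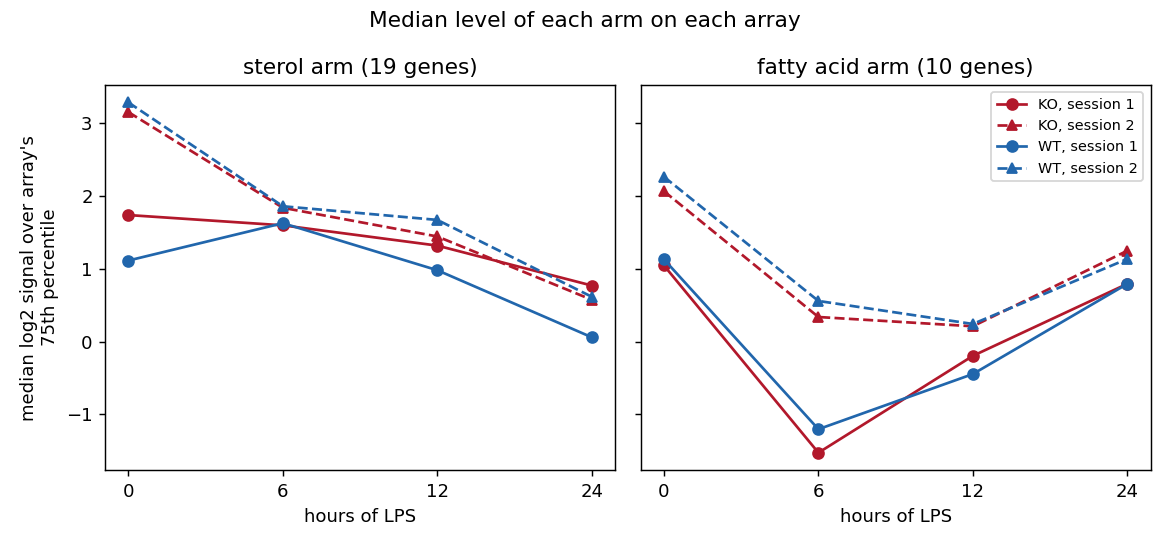
Median level of the 19 sterol arm genes and of the 10 fatty acid arm genes on each array (log2 signal relative to the array's 75th percentile) over 0, 6, 12 and 24 h of LPS. KO is red and WT blue, with session 1 as circles and session 2 as triangles. The sterol arm median is lowest at 24 h in each series, and the fatty acid arm median dips at 6 or 12 h.

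Slides held 4 arrays each, and where both groups shared a slide the comparison can be made within it. For KO cells the sterol arm median at 6 h against 0 h was 0.19 on a first-session slide and -0.90 on a second-session slide, and at 24 h it was -2.11 on that second-session slide. For WT cells it was -1.34 at 6 h and -2.35 at 24 h on another second-session slide, and -0.12 at 12 h on the first-session slide. All 19 sterol genes were below 0 h at 24 h on both slides that allowed this comparison, and the share of all genes was not counted there.

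The sterol enzymes that fell at 24 h ran from the mevalonate steps to the demethylation of sterols, with gaps. Mvk, Pmvk, Mvd, Lss, Ebp, Sc5d and Dhcr7 were among those that did not pass there without the session term. Hmgcs1 makes HMG-CoA, an early intermediate of the mevalonate steps. Hmgcs1 levels in KO cells were 3.98 and 4.86 at 0 h, 4.99 and 4.68 at 6 h, 3.44 and 3.92 at 12 h and 2.45 and 2.44 at 24 h. Hmgcs1 levels in WT cells were 3.56 and 5.25 at 0 h, 4.65 and 4.91 at 6 h, 3.29 and 3.80 at 12 h and 2.39 and 2.76 at 24 h. The 24 h arrays all lay below the 0 h arrays, while 6 h and 0 h overlapped. At 24 h Hmgcs1 fell by 1.90 ± 0.36 on the log2 scale (adjusted p = 0.00338), by 1.35 in session 1 and by 2.45 in session 2. The used probe matched an unplaced part of chromosome 13 in mm9 (chr13_random).

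Idi1 interconverts the basic isoprenoid units. Idi1 levels in KO cells were 1.58 and 3.59 at 0 h, 3.29 and 3.98 at 6 h, 1.52 and 2.85 at 12 h and 0.01 and 0.57 at 24 h. Idi1 levels in WT cells were 1.07 and 4.06 at 0 h, 2.92 and 4.17 at 6 h, 1.33 and 2.81 at 12 h and -0.61 and 1.03 at 24 h. The 6 h array exceeded its 0 h partner in every series, and every 24 h array lay below every 0 h array. At 24 h Idi1 fell by 2.33 ± 0.74, or 5.02-fold (adjusted p = 0.0467), and with the session term the adjusted p was 5.36e-04. The call without that term was lost on leaving out any 1 of 14 of the 16 arrays, with an adjusted p of up to 0.154. At 6 h its difference was 1.01 ± 0.74 (adjusted p = 0.314), which passed with the session term (adjusted p = 0.0284). Its probe lies at chr13:8891386-8891445 in mm9.

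Fdps joins isoprenoid units into farnesyl pyrophosphate. Fdps levels in KO cells were 2.01 and 3.93 at 0 h, 2.34 and 2.56 at 6 h, 1.84 and 2.55 at 12 h and 0.84 and 1.19 at 24 h. Fdps levels in WT cells were 1.79 and 4.33 at 0 h, 2.15 and 2.92 at 6 h, 1.74 and 2.51 at 12 h and 0.04 and 1.13 at 24 h. All 24 h arrays lay below all 0 h arrays, and session 2 started much higher than session 1. Fdps fell by 2.21 ± 0.58 at 24 h (adjusted p = 0.0205, and up to 0.0755 with 1 array left out), and its second probe gave a difference of -1.09. Fdft1, squalene synthase, commits farnesyl units to sterols. Fdft1 levels in KO cells were 0.51 and 2.16 at 0 h, 1.60 and 1.97 at 6 h, 0.74 and 1.42 at 12 h and -0.28 and 0.11 at 24 h. Fdft1 levels in WT cells were 0.18 and 2.50 at 0 h, 1.44 and 1.86 at 6 h, 0.13 and 1.58 at 12 h and -0.52 and -0.02 at 24 h. The 24 h arrays lay below both the 0 h and the 6 h arrays. At 24 h against 0 h the difference was -1.51 (adjusted p = 0.0719), which passed with the session term (adjusted p = 0.00521). Its second probe gave -0.37.

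Sqle, squalene epoxidase, adds the first oxygen to the sterol skeleton. Sqle levels in KO cells were 1.82 and 3.62 at 0 h, 1.74 and 1.84 at 6 h, 1.60 and 1.99 at 12 h and 0.77 and 0.79 at 24 h. Sqle levels in WT cells were 1.12 and 3.77 at 0 h, 1.63 and 1.91 at 6 h, 0.98 and 1.87 at 12 h and 0.06 and 1.01 at 24 h. Its 24 h arrays all lay below its 0 h arrays. Sqle fell by 1.93 ± 0.56 at 24 h (adjusted p = 0.0327, and up to 0.114 with 1 array left out), by 1.05 in session 1 and by 2.80 in session 2. Cyp51 removes the first methyl group of lanosterol. Cyp51 levels in KO cells were -1.03 and 1.50 at 0 h, 0.40 and 0.87 at 6 h, -0.85 and 0.39 at 12 h and -2.43 and -1.55 at 24 h. Cyp51 levels in WT cells were -1.16 and 1.96 at 0 h, 0.00 and 0.98 at 6 h, -1.01 and 0.35 at 12 h and -2.75 and -1.63 at 24 h. Session 2 started far above session 1, yet no 24 h array reached a 0 h array. Cyp51 fell by 2.41 ± 0.76 at 24 h, or 5.31-fold (adjusted p = 0.0433, and 9.84e-04 with the session term). Leaving out any 1 of 14 arrays lost the call without that term, with an adjusted p of up to 0.146. The probe lies at chr5:4083236-4083295 in mm9.

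Tm7sf2 is a sterol reductase of the lanosterol steps. Tm7sf2 levels in KO cells were 1.96 and 3.16 at 0 h, 1.42 and 2.03 at 6 h, 0.86 and 0.95 at 12 h and 1.14 and 0.33 at 24 h. Tm7sf2 levels in WT cells were 2.31 and 3.29 at 0 h, 1.79 and 2.26 at 6 h, 0.66 and 1.67 at 12 h and 0.92 and 0.41 at 24 h. Both 12 h and 24 h arrays lay below all 0 h arrays. Tm7sf2 fell by 1.64 ± 0.37 at 12 h (adjusted p = 0.00635) and by 1.98 ± 0.37 at 24 h (adjusted p = 0.00352). Hsd17b7 reduces a ketone in the demethylation of sterols. Hsd17b7 levels in KO cells were 1.15 and 2.33 at 0 h, 2.25 and 1.39 at 6 h, 2.39 and 1.45 at 12 h and 0.69 and -0.43 at 24 h. Hsd17b7 levels in WT cells were 0.73 and 2.85 at 0 h, 2.03 and 1.29 at 6 h, 1.55 and 1.44 at 12 h and 0.09 and -0.39 at 24 h. The sessions moved in opposite directions at 6 h, by 1.20 in session 1 and -1.25 in session 2. Both were below 0 h at 24 h, where Hsd17b7 fell by 1.77 ± 0.50 (adjusted p = 0.0284, and up to 0.107 with 1 array left out).

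Stard4, which carries cholesterol between membranes and is a target of SREBP-2, fell at all 3 times. Stard4 levels in KO cells were 1.74 and 1.98 at 0 h, 0.81 and 0.12 at 6 h, 0.30 and -0.09 at 12 h and -0.03 and -1.20 at 24 h. Stard4 levels in WT cells were 1.31 and 2.12 at 0 h, 0.37 and 0.08 at 6 h, -0.57 and -0.36 at 12 h and -1.12 and -0.85 at 24 h. Every LPS array at every time lay below every 0 h array. Stard4 fell by 1.44 ± 0.30 at 6 h (adjusted p = 0.0031), by 1.97 ± 0.30 at 12 h (adjusted p = 6.07e-04) and by 2.59 ± 0.30 at 24 h (adjusted p = 1.68e-04), the last being 6.02-fold. The early part rests on 1 of its 3 probes. The other 2 gave 0.37 and 0.29 at 6 h but -1.53 and -1.64 at 24 h, and with the mean over probes the 6 h and 12 h calls were lost (adjusted p = 0.689 and 0.102). The used probe lies at chr18:33361181-33361240 in mm9.

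**Figure D3:**
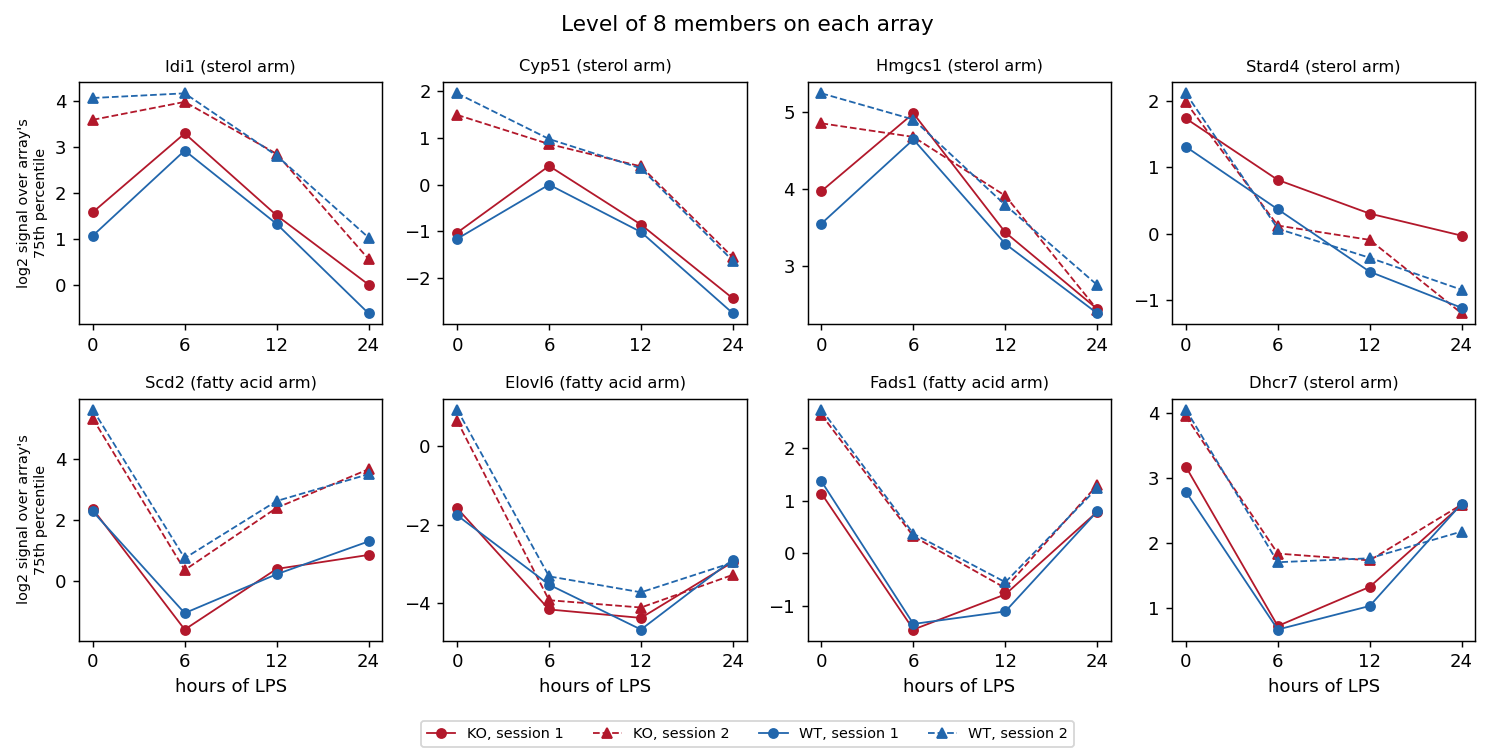
Level of Idi1, Cyp51, Hmgcs1, Stard4, Scd2, Elovl6, Fads1 and Dhcr7 on each array over 0, 6, 12 and 24 h of LPS (log2 signal relative to the array's 75th percentile), with KO in red and WT in blue. Circles with solid lines are session 1 and triangles with dashed lines session 2. Idi1 and Cyp51 are lowest at 24 h, whereas Scd2 is lowest at 6 h, at -1.60 to 0.75 on the 4 arrays.

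Dhcr7, which performs a last reduction to cholesterol, moved early instead. Dhcr7 levels in KO cells were 3.18 and 3.96 at 0 h, 0.72 and 1.84 at 6 h, 1.32 and 1.73 at 12 h and 2.59 and 2.59 at 24 h. Dhcr7 levels in WT cells were 2.79 and 4.06 at 0 h, 0.66 and 1.70 at 6 h, 1.03 and 1.76 at 12 h and 2.60 and 2.18 at 24 h. The 6 h and 12 h arrays lay below all 0 h arrays, and each 24 h array lay above each 6 h array. Dhcr7 fell by 2.27 ± 0.39 at 6 h (adjusted p = 9.53e-04), and the session values were close, at -2.29 and -2.24. At 24 h it was 1.26 ± 0.39 higher than at 6 h (adjusted p = 0.0359), a call that the mean over its probes lost (adjusted p = 0.0847).

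Mvd, the decarboxylase that ends the mevalonate steps, also had its lowest mean at 6 h. Mvd levels in KO cells were 1.49 and 2.92 at 0 h, 0.78 and 0.19 at 6 h, 1.03 and 0.85 at 12 h and 1.35 and 0.98 at 24 h. Mvd levels in WT cells were 1.05 and 2.96 at 0 h, 0.84 and 0.14 at 6 h, 0.89 and 1.07 at 12 h and 1.04 and 0.62 at 24 h. All 6 h arrays lay below all 0 h arrays. Mvd fell by 1.62 ± 0.43 at 6 h (adjusted p = 0.0127), by 0.46 in session 1 and by 2.78 in session 2. Ebp isomerises a double bond of the sterol ring and differed little between sessions. Ebp levels in KO cells were 5.47 and 5.53 at 0 h, 4.74 and 4.91 at 6 h, 4.65 and 4.31 at 12 h and 5.10 and 4.85 at 24 h. Ebp levels in WT cells were 5.23 and 5.30 at 0 h, 5.12 and 4.98 at 6 h, 4.59 and 5.04 at 12 h and 5.08 and 4.95 at 24 h. It fell by 0.73 ± 0.17 at 12 h (adjusted p = 0.00818), with differences of -0.73 in session 1 and -0.74 in session 2.

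Sc5d desaturates the sterol ring late in the route. Sc5d levels in KO cells were 2.09 and 3.80 at 0 h, 2.92 and 3.56 at 6 h, 2.06 and 3.14 at 12 h and 1.11 and 1.47 at 24 h. Sc5d levels in WT cells were 1.73 and 3.79 at 0 h, 2.82 and 3.58 at 6 h, 1.84 and 3.40 at 12 h and 0.98 and 1.91 at 24 h. Its 24 h arrays lay below its 6 h arrays but overlapped the 0 h arrays across sessions. At 24 h against 0 h the difference was -1.49 (adjusted p = 0.0919, and 0.00186 with the session term). Its other probe gave -1.41, -2.20 and -2.50 at 6, 12 and 24 h.

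The remaining 6 sterol genes did not pass without the session term in any comparison averaged over genotypes. Mvk and Pmvk, the 2 mevalonate kinases, differed by -0.99 and -0.76 at 24 h (adjusted p = 0.0772 and 0.0864). Lss, which closes the sterol rings, differed by -1.01 (adjusted p = 0.392), and Sc4mol, a sterol methyl oxidase now named Msmo1, by -1.54 (adjusted p = 0.0699). All 4 passed at 24 h with the session term. Session 1 gave -0.67, -0.27, -0.16 and -1.05 for these 4 genes at 24 h, and session 2 gave -1.30, -1.25, -1.86 and -2.03. Acat2, a cytosolic thiolase that condenses acetyl-CoA, and Nsdhl, a sterol dehydrogenase, passed in neither fit, with differences of -0.97 and -0.57 at 24 h. Acat2 differed by -0.18 in session 1 and -1.77 in session 2 at 24 h, and by 1.19 and -1.56 at 6 h. Nsdhl differed by -0.13 in session 1 and -1.0047 in session 2 at 24 h.

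Promoter sequence was available for 27 of the 34 genes, as the 250 bases before the transcription start in RefSeq on GRCm38.p6. Fdps, Fdft1, Sqle, Stard4, Scd1, Scd2 and Fads1 had no entry. Both strands were searched for 4 motifs that are known around SREBP-regulated starts. These were the sterol element TCACNCCA, the NF-Y box CCAAT, the Sp1 box GGGCGG and the E-box CACGTG. TCACNCCA occurred in 3 of 27 genes (11.1%), against 4.2% of all 27025 genes with a window. CCAAT occurred in 77.8% of the 27 genes against 37.5% of all, and GGGCGG in 81.5% against 35.4%. CACGTG occurred in 22.2% against 6.86%. Of the 15 sterol genes with a window, 14 held CCAAT and 14 held GGGCGG, compared with 3 and 3 of the 7 fatty acid genes. These are matches of letters in a window and say nothing about binding.

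The 5 windows below are shown because 3 of them, Hmgcs1, Msmo1 and Srebf2, are those that matched TCACNCCA, Cyp51 was lowered most at 24 h among sterol genes with a window, and Fasn stands for the fatty acid arm. Capitals mark every match of the 4 motifs on either strand, so CCAAT on the opposite strand reads ATTGG and GGGCGG reads CCGCCC.
Hmgcs1 (chr13:119690101-119690350, plus strand): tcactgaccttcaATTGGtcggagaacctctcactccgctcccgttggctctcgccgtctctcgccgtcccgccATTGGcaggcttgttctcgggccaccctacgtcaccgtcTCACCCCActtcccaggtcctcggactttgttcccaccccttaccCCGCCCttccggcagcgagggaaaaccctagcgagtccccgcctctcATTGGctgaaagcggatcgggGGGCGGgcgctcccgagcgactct
Msmo1 (chr8:64733579-64733828, minus strand): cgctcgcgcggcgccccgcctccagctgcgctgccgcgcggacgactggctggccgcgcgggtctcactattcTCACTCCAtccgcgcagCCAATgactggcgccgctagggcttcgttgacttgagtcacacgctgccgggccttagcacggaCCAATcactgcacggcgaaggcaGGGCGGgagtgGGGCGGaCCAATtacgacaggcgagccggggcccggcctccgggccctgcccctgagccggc
Srebf2 (chr15:82147019-82147268, plus strand): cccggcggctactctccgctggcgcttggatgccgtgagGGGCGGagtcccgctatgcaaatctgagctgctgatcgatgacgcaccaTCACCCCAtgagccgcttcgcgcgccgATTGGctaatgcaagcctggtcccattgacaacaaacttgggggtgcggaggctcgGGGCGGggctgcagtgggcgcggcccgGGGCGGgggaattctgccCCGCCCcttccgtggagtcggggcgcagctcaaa
Cyp51 (chr5:4104698-4104947, minus strand): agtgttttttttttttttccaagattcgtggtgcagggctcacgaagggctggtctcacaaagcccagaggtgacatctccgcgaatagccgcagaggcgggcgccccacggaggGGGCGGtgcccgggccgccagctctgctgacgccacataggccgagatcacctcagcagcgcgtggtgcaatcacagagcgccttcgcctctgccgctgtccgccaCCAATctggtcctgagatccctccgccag
Fasn (chr11:120824548-120824797, minus strand): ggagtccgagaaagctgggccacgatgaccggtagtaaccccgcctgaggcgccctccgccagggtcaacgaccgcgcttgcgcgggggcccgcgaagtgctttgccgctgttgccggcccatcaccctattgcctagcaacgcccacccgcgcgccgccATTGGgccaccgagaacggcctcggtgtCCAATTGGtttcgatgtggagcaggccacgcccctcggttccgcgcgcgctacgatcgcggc
The sterol element match begins 137 bases before the start in Hmgcs1, 177 in Msmo1 and 162 in Srebf2. Hmgcs1 and Msmo1 each held 3 CCAAT and 2 GGGCGG matches, and Srebf2 held 1 and 4. Cyp51 held 1 of each. Fasn held 3 CCAAT matches, 2 of which overlap, and no GGGCGG match.

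Among the regulators, Srebf2 fell late together with Scap and Insig1, while Srebf1 did not pass at any time. Srebf2 encodes SREBP-2 and is itself one of its targets. Srebf2 levels in KO cells were 4.87 and 4.97 at 0 h, 4.998 and 4.73 at 6 h, 4.67 and 4.17 at 12 h and 3.81 and 3.49 at 24 h. Srebf2 levels in WT cells were 4.40 and 5.14 at 0 h, 4.69 and 4.54 at 6 h, 3.98 and 4.29 at 12 h and 3.05 and 3.24 at 24 h. All 24 h arrays lay below all 0 h arrays, and the sessions were close. Srebf2 fell by 1.45 ± 0.22 at 24 h (adjusted p = 8.82e-04), by 1.21 in session 1 and by 1.69 in session 2. Its 4 probes gave differences of -1.45 to -0.61.

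Insig1, an anchor that retains Scap when sterols are plentiful, is another SREBP target. Insig1 levels in KO cells were 0.53 and 1.36 at 0 h, 1.15 and 0.62 at 6 h, 0.10 and 0.01 at 12 h and -0.28 and -0.66 at 24 h. Insig1 levels in WT cells were -0.03 and 1.75 at 0 h, 1.43 and 0.29 at 6 h, -0.26 and 0.18 at 12 h and -0.87 and -0.84 at 24 h. The sessions differed in sign at 6 h, by 1.04 in session 1 and -1.10 in session 2, and all 24 h arrays lay below all 0 h arrays. Insig1 fell by 1.57 ± 0.40 at 24 h (adjusted p = 0.0175, and up to 0.0669 with 1 array left out). Insig2, a related anchor, gave differences of -0.22, -0.27 and 0.07 at the 3 times (adjusted p = 0.459, 0.397 and 0.863).

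Scap, the escort of SREBP to the Golgi, first rose and then fell. Scap levels in KO cells were 3.28 and 3.42 at 0 h, 3.97 and 4.64 at 6 h, 2.96 and 3.06 at 12 h and 2.89 and 2.28 at 24 h. Scap levels in WT cells were 3.42 and 3.43 at 0 h, 4.21 and 4.27 at 6 h, 2.85 and 3.18 at 12 h and 2.89 and 2.31 at 24 h. Every 6 h array lay above and every 24 h array below the 4 arrays at 0 h. Scap rose by 0.89 ± 0.23 at 6 h (adjusted p = 0.00981) and fell by 0.80 ± 0.23 at 24 h (adjusted p = 0.029, and up to 0.115 with 1 array left out). The 6 h rise was not called after quantile normalization (adjusted p = 0.242).

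Srebf1 gives rise to SREBP-1, the regulator of fatty acid genes. Srebf1 levels in KO cells were 3.70 and 4.58 at 0 h, 3.71 and 4.40 at 6 h, 3.87 and 4.70 at 12 h and 3.48 and 4.95 at 24 h. Srebf1 levels in WT cells were 3.66 and 4.59 at 0 h, 3.78 and 3.96 at 6 h, 3.74 and 4.85 at 12 h and 3.21 and 4.21 at 24 h. Time points overlapped throughout, and session 2 was higher than session 1 in each group. Its differences were -0.17 at 6 h, 0.16 at 12 h and -0.17 at 24 h, with an SE of 0.44 (adjusted p = 0.793, 0.828 and 0.834). The probe is not known to separate the SREBP-1a and SREBP-1c messages.

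In the fatty acid arm Scd2, Elovl5, Elovl6, Fads1 and Fads2 fell at 6 h, and the last 4 also at 12 h. Scd2 is a stearoyl-CoA desaturase, which makes monounsaturated fatty acids. Scd2 levels in KO cells were 2.36 and 5.34 at 0 h, -1.60 and 0.36 at 6 h, 0.39 and 2.40 at 12 h and 0.85 and 3.67 at 24 h. Scd2 levels in WT cells were 2.28 and 5.63 at 0 h, -1.06 and 0.75 at 6 h, 0.22 and 2.63 at 12 h and 1.30 and 3.51 at 24 h. All 6 h arrays lay below all 0 h arrays, and in each series the level was lowest at 6 h and higher at 12 h and 24 h. Scd2 fell by 4.29 ± 1.11 at 6 h, or 19.6-fold (adjusted p = 0.0104). At 24 h the difference was -1.57 (adjusted p = 0.364), which passed with the session term (adjusted p = 9.78e-04).

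Scd1 is a paralog of Scd2, and no test compared their courses. Scd1 levels in KO cells were -4.18 and 0.55 at 0 h, -4.92 and -2.06 at 6 h, -5.71 and -3.32 at 12 h and -5.54 and -3.86 at 24 h. Scd1 levels in WT cells were -2.39 and 0.46 at 0 h, -4.04 and -1.39 at 6 h, -5.21 and -2.39 at 12 h and -6.10 and -4.07 at 24 h. Session 2 lay far above session 1 in all groups, and time points overlapped across sessions. The differences were -1.71, -2.77 and -3.50 at 6, 12 and 24 h, none called without the session term (adjusted p = 0.322, 0.123 and 0.0754). All 3 passed with it (adjusted p = 0.00447, 2.87e-04 and 1.01e-04), and the values of the 2 arrays not well above background are only bounds. Scd1 and Scd2 lie near each other on chromosome 19 and have similar coding sequence, so some cross-hybridization between their probes is possible and was not tested.

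Elovl6 elongates palmitate to stearate. Elovl6 levels in KO cells were -1.59 and 0.63 at 0 h, -4.15 and -3.92 at 6 h, -4.37 and -4.10 at 12 h and -2.95 and -3.27 at 24 h. Elovl6 levels in WT cells were -1.77 and 0.91 at 0 h, -3.52 and -3.31 at 6 h, -4.66 and -3.72 at 12 h and -2.89 and -2.96 at 24 h. Every LPS array lay below every 0 h array. Elovl6 fell by 3.27 ± 0.58 at 6 h (adjusted p = 0.00121), by 3.76 ± 0.58 at 12 h (adjusted p = 6.83e-04) and by 2.56 ± 0.58 at 24 h (adjusted p = 0.00999). These were falls of 9.67-fold, 13.5-fold and 5.92-fold. Elovl5, which elongates polyunsaturated fatty acids, changed less. Elovl5 levels in KO cells were 1.90 and 2.45 at 0 h, 0.48 and 1.54 at 6 h, 0.49 and 1.09 at 12 h and 1.63 and 1.86 at 24 h. Elovl5 levels in WT cells were 1.85 and 2.84 at 0 h, 0.77 and 1.67 at 6 h, 0.63 and 1.04 at 12 h and 1.63 and 1.86 at 24 h. The 6 h and 12 h arrays lay below all 0 h arrays. Elovl5 fell by 1.15 ± 0.34 at 6 h (adjusted p = 0.0195) and by 1.45 ± 0.34 at 12 h (adjusted p = 0.00706), while with the mean over its probes neither call held (adjusted p = 0.136 and 0.066).

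Fads1 and Fads2 are the front-end desaturases that make arachidonic and related acids. Fads1 levels in KO cells were 1.14 and 2.64 at 0 h, -1.45 and 0.32 at 6 h, -0.78 and -0.66 at 12 h and 0.79 and 1.30 at 24 h. Fads1 levels in WT cells were 1.37 and 2.74 at 0 h, -1.35 and 0.37 at 6 h, -1.11 and -0.55 at 12 h and 0.80 and 1.24 at 24 h. Its 6 h and 12 h arrays lay below all 0 h arrays, and its 24 h arrays lay above all 6 h arrays. Fads1 fell by 2.50 ± 0.54 at 6 h (adjusted p = 0.00369) and by 2.75 ± 0.54 at 12 h (adjusted p = 0.00269). At 24 h its difference was -0.94 (adjusted p = 0.252, and 0.0298 with the session term).

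Fads2 lies beside Fads1 in the genome. Fads2 levels in KO cells were -1.01 and 0.73 at 0 h, -1.92 and -1.54 at 6 h, -2.36 and -2.12 at 12 h and -3.00 and -2.22 at 24 h. Fads2 levels in WT cells were -0.95 and 1.04 at 0 h, -1.50 and -0.96 at 6 h, -2.61 and -1.62 at 12 h and -2.82 and -2.31 at 24 h. The 12 h and 24 h arrays lay below all 0 h arrays. Fads2 fell by 1.44 ± 0.50 at 6 h (adjusted p = 0.04, and up to 0.147 with 1 array left out), by 2.13 ± 0.50 at 12 h (adjusted p = 0.00719) and by 2.54 ± 0.50 at 24 h (adjusted p = 0.00427). No test compared the courses of Fads1 and Fads2 with each other.

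Fasn, the synthase that makes palmitate, had a wide session gap. Fasn levels in KO cells were 3.23 and 5.79 at 0 h, 2.60 and 3.01 at 6 h, 2.75 and 3.74 at 12 h and 2.66 and 3.32 at 24 h. Fasn levels in WT cells were 3.09 and 5.97 at 0 h, 2.56 and 2.85 at 6 h, 2.42 and 3.74 at 12 h and 2.11 and 2.93 at 24 h. Session 2 lay 2.55 above session 1 in KO cells and 2.88 above it in WT cells at 0 h. The differences were -1.76, -1.36 and -1.77 at 6, 12 and 24 h, none called without the session term (adjusted p = 0.0657, 0.162 and 0.0959) and all called with it (adjusted p = 0.00538, 0.0224 and 0.00844). Acly, which makes cytosolic acetyl-CoA, differed by -0.15, -0.05 and -0.38, and Acaca, which makes malonyl-CoA, by -0.22, -0.48 and -0.22, and neither passed in any LPS comparison averaged over genotypes in either fit. Elovl1, an elongase of very long chains, differed by 0.14, 0.39 and 0.28, and only the 12 h value passed, with the session term (adjusted p = 0.0383).

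The comparison of 24 h with 6 h does not use the 0 h levels, although the fit pools its spread over all 16 arrays. Without the session term 11 of the 34 genes were lower at 24 h than at 6 h, against 12.9% of all genes, and 1 was higher, against 14% of all genes. With the session term 16 fell, against 26.3%, and 4 rose, against 22.4%. The 11 were 8 sterol genes and the regulators Srebf2, Scap and Insig1. Dhcr7 was the 1 that rose. Of these 12 calls, 8 were lost on leaving out at least 1 array, and scaling to the array median left 3 falls, against 6.28% of all genes. The sterol arm median was -1.14, at -1.27 in session 1 and -0.98 in session 2, and the median over all genes was -0.15. The fatty acid arm median was 0.07.

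Idi1 differed most among the sterol genes between these times. It fell by 3.34 ± 0.74, or 10.1-fold (adjusted p = 0.00796), and the differences were -3.41 in session 1 and -3.27 in session 2. Cyp51 fell by 2.66 (adjusted p = 0.0251), Hmgcs1 by 2.30 (adjusted p = 0.00115), Fdft1 by 1.90 (adjusted p = 0.0262) and Sc5d by 1.85 (adjusted p = 0.0364). Hsd17b7 differed by -1.75 in each session, Insig1 by -1.86 in session 1 and -1.21 in session 2, and Acat2 by -1.37 and -0.21. Among fatty acid genes, Scd2 and Fads1 were higher at 24 h by 2.72 and 1.56, which passed with the session term only (adjusted p = 0.0976 and 0.0543 without it, 3.37e-05 and 0.0021 with it). Elovl5 likewise passed with the session term only, at 0.63.

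Each genotype taken alone gave fewer calls than the average over both. In KO cells 4, 5 and 3 of the 34 genes fell at 6, 12 and 24 h, against 13.7%, 9.87% and 4.86% of all genes. In WT cells 4, 5 and 5 fell, against 12.7%, 9.57% and 5.34%. With the session term 12, 10 and 14 fell in KO cells, against 22.6%, 18.8% and 12.4%, and 10, 10 and 18 in WT cells, against 21.9%, 18.9% and 14.1%. Dhcr7, Stard4, Elovl6 and Fads1 fell in both genotypes at 6 h and at 12 h. Hmgcs1, Stard4 and Srebf2 fell in both at 24 h. Without the session-2 array at 0 h no gene of the list was called at 6 h or 12 h in that genotype, and 1 was called at 24 h in each. Without that 0 h array the sterol arm median was 0.26 and 0.10 in KO cells, and 0.65 and 0.34 in WT cells, at 6 and 12 h. The 0 h level then came from session 1 alone and the LPS levels from both sessions, so these medians mix LPS with session. Within session 1 the medians at 6 and 12 h were 0.19 and -0.22 in KO cells, and 0.37 and -0.12 in WT cells. The counts also came to 0 in WT cells at 6 h without the session 1 array of that group, and in KO cells at 12 h without the session 2 array of that group.

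No gene of the list passed the test between KO and WT cells. At 0, 6, 12 and 24 h the count was 0 of 34 at each time, and also 0 for the average over times. The background was equally small, at 0%, 0%, 0.0112% and 0% at the 4 times and 0.0223% for the average. With the session term these were 0.00558%, 0.0112%, 0.0168%, 0% and 0.0279%. A joint F test of whether the LPS response differed between genotypes called 0 of the 34, against 0% of all genes (0.0112% with the session term). At an unadjusted p under 0.05, limma also called 0 of the 34 in each of these comparisons, with or without the session term.

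Averaged over the 4 times, KO minus WT ranged between -0.49 for Scd1 and 0.33 for Stard4, with a median absolute difference of 0.11. In the fit without the session term, the 95% interval lay within 1 log2 unit on either side of 0 for 25 of the 34 genes. At a single time the half-width of the interval had a median of 1.47. Gaps between sessions count as spread in this fit, so the intervals do not give the precision of KO against WT within sessions. Srebf2 came nearest to the threshold in this fit, at 0.30 ± 0.15 (unadjusted p = 0.0831). Its levels at 24 h were 3.81 and 3.49 in KO cells and 3.05 and 3.24 in WT cells, so the KO arrays lay above the WT arrays. The difference was 0.50 ± 0.31, which did not pass. How many of all genes had such a gap between 2 and 2 arrays was not counted, so nothing about genotype was concluded from the gap. The sterol arm median of KO minus WT was 0.36 in session 1 and -0.23 in session 2 at 0 h, and 0.24 and -0.04 at 24 h. In session 1 the arrays of both genotypes shared a slide at each of these times.

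**Figure D4:**
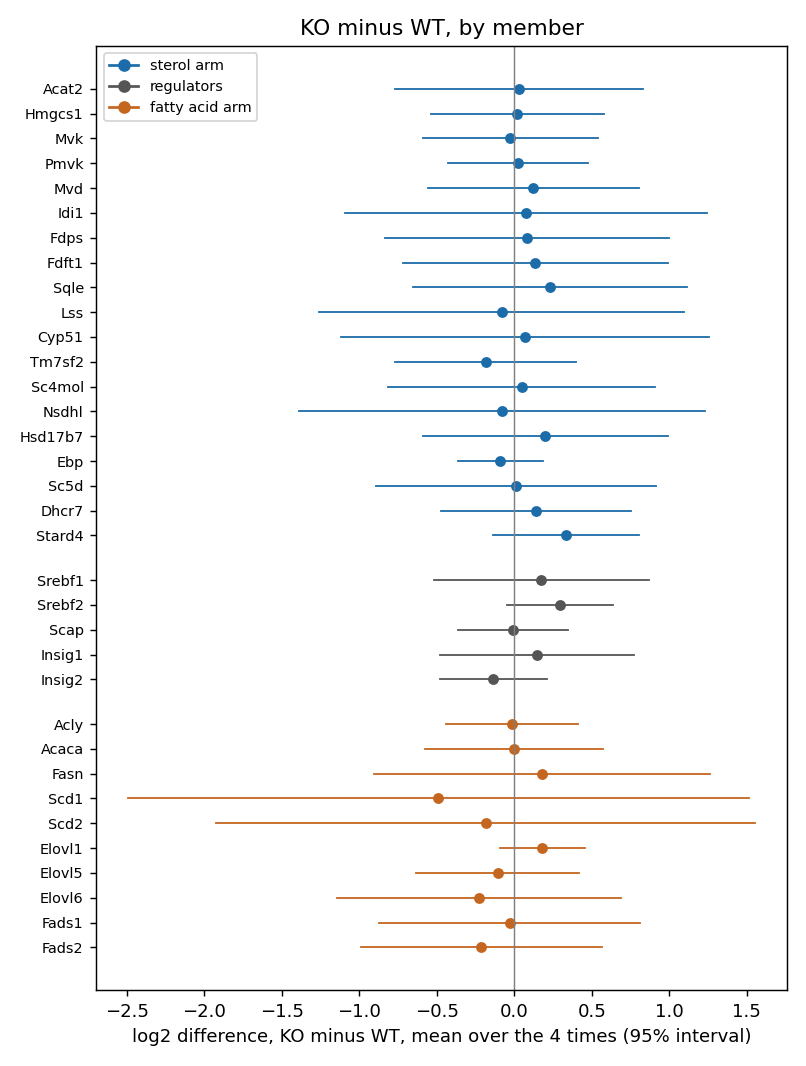
KO minus WT difference of each gene averaged over 0, 6, 12 and 24 h (log2 scale), with 95% intervals, genes in rows grouped by arm. Every interval includes 0, and the widest belongs to Scd1. The intervals come from the fit without the session term, so gaps between sessions count as spread.

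The backgrounds for the lists that follow are shares of all genes risen and fallen. Without the session term they were 19.5% and 21.1% at 6 h, 16.8% and 17.5% at 12 h, and 11% and 11.8% at 24 h. With the session term they were 30% and 29.3% at 6 h, 26.5% and 26.7% at 12 h, and 20.4% and 21.5% at 24 h. Among genes of sterol transport and lipid synthesis, calls went both ways at 6 h. Npc2, which moves cholesterol out of lysosomes, rose at 6 h by 1.17. Lpin1, a phosphatidate phosphatase, fell by 5.23 at 6 h and by 3.13 at 24 h (adjusted p = 4.75e-06 and 3.14e-04). Npc1, which exports cholesterol from lysosomes, and Soat1, which esterifies it, also fell at 6 h, with differences of -0.99 and -0.79.

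Of 9 genes of SREBP processing and turnover, 1 rose and 0 fell at each time without the session term. With it, 2 rose and 1 fell at 6 h, against 30% and 29.3% of all genes. At 12 h 3 rose and 1 fell, against 26.5% and 26.7%, and at 24 h 2 and 2, against 20.4% and 21.5%. The gene called without the term was Rnf139, a ubiquitin ligase of the endoplasmic reticulum, at 2.40, 1.64 and 0.97. Of 11 genes that lead isoprenoids to prenylation, dolichol and ubiquinone, 4 rose and 4 fell at 6 h, and 4 rose and 1 fell at 24 h. Under the session term 5 rose and 4 fell at 6 h, and 6 rose and 1 fell at 24 h. Pdss1, which makes the side chain of ubiquinone, rose by 3.14 at 6 h (adjusted p = 3.37e-05), and Pggt1b, a subunit of a prenyl transferase, by 1.62. Rabggta, which prenylates Rab proteins, fell by 1.76 at 6 h (adjusted p = 3.57e-05).

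Of 17 other fatty acid genes, 3 rose and 4 fell at 6 h, against 19.5% and 21.1% of all genes. At 24 h 4 rose and 3 fell, against 11% and 11.8%. Adding session gave 7 that rose and 4 that fell at 6 h, against 30% and 29.3%, and 5 and 5 at 24 h, against 20.4% and 21.5%. The acyl-CoA synthetase Acsl1 rose by 4.66, 4.92 and 4.38 at 6, 12 and 24 h (adjusted p = 1.33e-06, 1.33e-06 and 5.45e-06). Acsl5 rose by 1.71, 2.30 and 1.87. The elongase Elovl2 also rose at all 3 times, and was not well above background on any 0 h array. It passed the detection filter only through LPS groups, so its calls are not independent of that filter. Its bounds were taken against the lowest signal among probes well above background on the 0 h arrays. Elovl2 was at least 6.84-fold higher at 6 h and at least 6.53-fold higher at 12 h. At 24 h only 1 of 4 arrays measured it, so no bound is given there. In the opposite direction the elongase Elovl7 fell at all 3 times. It differed by -2.81 at 6 h (adjusted p = 4.75e-04), with 2 of 4 arrays well above background there. At 12 and 24 h it was not well above background on any array. It was at least 8.77-fold lower at 12 h and at least 11.6-fold lower at 24 h. The groups that carried Elovl7 through the filter were brighter ones, so these 2 calls too are not independent of the filter. Mid1ip1, an activator of acetyl-CoA carboxylase, also fell at all 3, with -2.01, -2.23 and -1.48. Acsl3 fell by 2.97 at 6 h and Fads3 by 1.62.

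Of 9 oxysterol and LXR genes, 2 rose and 3 fell at 6 h, against 19.5% and 21.1% of all genes. At 24 h 2 rose and 1 fell, against 11% and 11.8%. Adding session gave 2 that rose and 3 that fell at 6 h, against 30% and 29.3%, and 2 and 4 at 24 h, against 20.4% and 21.5%. Ch25h, the enzyme that makes 25-hydroxycholesterol, rose by 8.15 ± 0.81 at 6 h, 7.94 at 12 h and 4.995 at 24 h (adjusted p = 2.53e-05, 4.17e-05 and 0.00139). Nr1h3, which encodes LXRα, rose by 2.84 at 6 h and 4.02 at 24 h (adjusted p = 0.00104 and 2.47e-04). Abca1, the cholesterol exporter and LXR target, fell by 1.77 at 6 h (adjusted p = 0.0011) and differed by -0.58 and -0.62 later (adjusted p = 0.184 and 0.192). Cyp27a1, which makes another oxysterol, fell at all 3 times, with differences of -1.70, -3.13 and -2.90. In the average over times, 0 of the genes named here passed the test between KO and WT cells.

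Lists of other functions were read on the same arrays. Of the 10 macrophage markers, at least 9 were above background on both arrays of every group. They summed to 1387 to 2259 times the 75th percentile in KO cells at 24 h against 967.3 to 1875 at 0 h, and to 1157 to 2115 in WT cells at 24 h against 899.1 to 1552 at 0 h. Of the 10, 4 rose and 2 fell at 6 h, and 2 rose and 2 fell at 24 h. With the session term 5 rose and 2 fell at 6 h, and 4 rose and 4 fell at 24 h. The scavenger receptors Mrc1 and Cd163 were the 2 that fell, Mrc1 by 5.56 at 24 h (adjusted p = 5.28e-06). Cd163 was well above background on 3 of 4 arrays at 24 h, where the adjusted p was 0.0032. Of 12 proliferation genes, 10 fell at 6 h and 11 at 12 and 24 h, with medians of -3.64, -4.63 and -4.21. All 3 counts were 11 with the session term. Their summed signal, relative to the array's 75th percentile, was 5.39 to 8.86 in KO cells at 24 h against 72.3 to 86.2 at 0 h, and 5.83 to 8.45 in WT cells at 24 h against 79.9 to 87.5 at 0 h. Neutrophil markers summed to 0.159 to 0.727 in KO cells at 24 h against 0.575 to 2.27 at 0 h, and 0.141 to 0.664 in WT cells at 24 h against 0.563 to 3.28 at 0 h. Of these 6 markers, Elane was above background on 0 arrays. The higher neutrophil value of each range at 0 h belonged to session 1, in which the sterol genes were lower. Of 5 adipocyte markers 1 was tested, and their sum did not exceed 0.243. The part of proliferation or of other cell types in the sterol and fatty acid results was not tested.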

How the data were processed

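The deposited scanner files give the brightness of each spot as a linear intensity, background-subtracted and detrended by Agilent Feature Extraction 10.5.1.1, per the file headers. Probe positions are on mm9, per the file headers. Log2 of these intensities, minus the array's 75th percentile, was used after dropping 1639 control spots and 61 to 108 outlier spots an array. Spots of a probe were averaged, and each gene kept the probe with the highest mean over the 16 arrays. A gene was tested if well above background on both arrays of at least 1 group, which kept 17908 of 28104 gene names. limma 3.58.1 in R 4.3.3 fitted 8 group means on all 16 arrays, with empirical Bayes variances, and p-values were adjusted by the Benjamini-Hochberg method with a threshold of 0.05. The fits were tested on simulated data.

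The authors' deposited series table holds log2 values with column medians of 4.24 to 5.25. They tracked the scanner values with a correlation of 1 on each array, up to a shift that put every 75th percentile near 8.79, and served as an alternative. The reason for that constant is not given in the sources used here.

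Replicate numbers pair the samples. In 28 of 28 pairs of groups, arrays with one number deviated together, with correlations of 0.40 to 0.84 (median 0.58), and the headers show that a number is a scan session. Session and slide were therefore added as terms in alternative fits, without a term in the fit the text leads with. Other alternatives were the background correction, the scaling, the filter, the probe rule and leaving out each array.

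Genes and lists were chosen with earlier results of these data known. Values for each array are given for genes called in an LPS comparison averaged over genotypes and for Srebf1, Srebf2, Insig1, Fasn, Scd1, Scd2, Sqle and Hmgcs1. Of every other pathway list, called genes with the largest differences are named, up to 4 in each direction, and always Ch25h, Nr1h3 and Abca1. Some genes of the list of other sterol genes, and its counts, are not reported here. Lists for macrophage, adipocyte, neutrophil and proliferation genes are given as summed levels, with counts. Lists for stromal, B cell, T cell, erythroid and dendritic markers were also read, with 5, 4, 2, 2 and 4 genes tested. Of these 3, 1, 1, 0 and 2 rose at 6 h, against 19.5% of all genes, and 1 B cell gene fell, against 21.1%.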

Additional observations from a re-analysis of the deposited data

How the results depend on the processing

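The counts of called genes depended on scaling and on the session term. They are given here in the order KO at 6, 12 and 24 h, WT at 6, 12 and 24 h, then the averages at 6, 12 and 24 h and 24 h against 6 h. The values reported above were 4, 5, 3, 4, 5, 5, 9, 8, 13 and 12. The replicate block, which is the session term, gave 13, 10, 14, 11, 10, 18, 15, 17, 25 and 20, and slide as a term gave 16, 20, 24, 15, 10, 24, 19, 23, 29 and 21. Normexp background correction gave 0 in each genotype alone, then 4, 5, 1 and 0. Scaling to the array median gave 1 at each time in KO cells, 0, 2 and 1 in WT cells, 4 and 2 for the averages at 12 and 24 h, and 3 for 24 h against 6 h. Quantile normalization gave 7 for KO at 6 h, 8 for WT at 12 h and 13 for the average at 12 h. No filter gave 2 for KO at 6 h, 1 for KO at 24 h and 3 for WT at 24 h. A filter asking for all 16 arrays above background gave 5 for KO at 24 h, and the mean over probes gave 3 for KO and 2 for WT at 12 h. Elsewhere these settings stayed within 1.5 times the count, and the deposited series table did so throughout.

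Leaving out 1 array gave 0 to 6, 0 to 6 and 1 to 5 in KO, 0 to 6, 0 to 7 and 1 to 11 in WT, and 7 to 12, 8 to 15, 6 to 20 and 4 to 14 for the averages. The averages came to 15 at 12 h and 20 at 24 h without the WT 0 h array of session 1. At 24 h 6 genes were called without either 0 h array of session 2, and 7 without the 24 h array of session 2 of either genotype. At 24 h against 6 h, 4 genes were called without the session 1 array of KO at 6 h, and 5 without that of WT at 6 h, that of WT at 24 h or the session 2 array of KO at 24 h.

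Genotype comparisons and the F test had 0 calls under every setting. Arm medians turned positive only without the 0 h array of session 2, for the sterol arm at 0.26 and 0.10 in KO and at 0.65 and 0.34 in WT at 6 and 12 h. Leaving out an array leaves 1 session in its group, so such fits mix LPS with session. Over the arrays left out, the sterol median spanned -1.10 to 0.26, -1.32 to 0.10 and -2.24 to -0.80 in KO, and -1.43 to 0.65, -1.70 to 0.34 and -2.62 to -0.45 in WT, at 6, 12 and 24 h. The fatty acid median spanned -2.72 to -0.58, -2.76 to -0.65 and -2.20 to -0.13 in KO, and -2.72 to -0.35, -3.02 to -0.94 and -2.48 to -0.23 in WT. At 12 h, normexp moved the sterol median to -1.49 in KO and -1.56 in WT and the fatty acid median to -0.92 in WT. The slide term moved the KO medians at 12 h to -1.50 for the sterol and -2.54 for the fatty acid arm.

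Of 68 single calls, 10 were kept under normexp, 21 under median scaling, 64 under quantile normalization, 52 without a filter and 52 with the mean over probes, and 0 changed direction. Median scaling put the median of all genes at 0.16, 0.23 and 0.29 at 6, 12 and 24 h, and normexp at 0.22, 0.33 and 0.19. Falls made up 51.7% of all calls at 24 h, against 40.2% under median scaling. At 24 h against 6 h they made up 47.9%, against 36.2% under median scaling and 38.5% under quantile normalization. The causes of these shifts were not tested.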
